A study of Mus musculus with 20 samples.

Results

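In E11.5 mouse embryos, 12313 autosomal regions carried a peak of 5-formylcytosine (5fC) in every one of 9 *Tdg* null libraries from hindbrain, heart, liver and carcass. The regions were chosen by those peaks themselves. The autosomes were divided into 100 bp bins, bins under a peak in all 9 libraries were joined into stretches, and stretches of 200 bp or more and shorter than 3000 bp were kept. With the same length limits, 392984 stretches lay under a peak of at least 1 of the 9 libraries. Because the peaks of the *Tdg* null libraries selected the regions, their values there are given as a description without a test, and tests use the wild-type (WT) libraries, which the selection did not use.

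The series profiled 5fC by chemical pull-down and sequencing in 20 libraries from 12 embryos of 6 litters. *Tdg* null embryos were homozygous for a deletion in which a neomycin cassette replaces the part of *Tdg* that encodes the catalytic domain, in all cells, and came with their WT littermates from crosses between heterozygotes. Hindbrain was taken from 4 WT and 4 *Tdg* null embryos of litters A, O, Q and Z. Heart, liver and carcass came from the same 2 WT and 2 *Tdg* null embryos of the other litters, labelled pair_a and pair_b, so these tissues are not independent. Carcass is what was left of the embryo after dissection and holds many cell types, and each dissected organ is also a mixture of cells. The 10th *Tdg* null library, liver of pair_b, was left out of the study for poor quality and lies outside the selection. The files give only peak positions, so sequencing depth and peak height are unknown, and a region without a peak in a library may still carry 5fC.

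5fC arises when TET enzymes oxidise 5-methylcytosine, by way of 5-hydroxymethylcytosine, mostly at CpG dinucleotides. Thymine DNA glycosylase, the product of *Tdg*, cuts out 5fC and 5-carboxylcytosine, and base excision repair then restores an unmodified cytosine. In cells without the enzyme 5fC accumulates where TET proteins have acted, so its position in *Tdg* null DNA marks sites of methylation turnover, while in WT DNA it marks what is left after excision.

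The sequences below show the 6 common regions with a peak in at least 9 of the 10 WT libraries, since these are the members in which 5fC was found in nearly every library of either genotype. Each is the central 300 bases on the plus strand of NCBIM37 (mm9), in lower case with every CpG in capitals. The annotation in parentheses is that of the whole region, of which the window is only a part. The windows are chr9:47166201-47166500 (intergenic, nearest gene *Cadm1*), chr4:144589801-144590100 (intron of *Vps13d*, touching a CpG island), chr11:118995901-118996200 (intron of the non-coding transcript Gm11755, nearest coding gene *Tbc1d16*), chr9:22888101-22888400 (intergenic, nearest gene *Bmper*), chr15:27595251-27595550 (intron of *Fam105a*) and chr4:8738301-8738600 (region touching a coding exon of *Chd7*).
Cadm1: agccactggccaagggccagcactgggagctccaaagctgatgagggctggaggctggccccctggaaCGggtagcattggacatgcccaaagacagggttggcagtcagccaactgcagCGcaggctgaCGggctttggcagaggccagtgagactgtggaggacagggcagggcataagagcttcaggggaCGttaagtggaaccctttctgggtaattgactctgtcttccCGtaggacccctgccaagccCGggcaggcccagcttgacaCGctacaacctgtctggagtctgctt
Vps13d: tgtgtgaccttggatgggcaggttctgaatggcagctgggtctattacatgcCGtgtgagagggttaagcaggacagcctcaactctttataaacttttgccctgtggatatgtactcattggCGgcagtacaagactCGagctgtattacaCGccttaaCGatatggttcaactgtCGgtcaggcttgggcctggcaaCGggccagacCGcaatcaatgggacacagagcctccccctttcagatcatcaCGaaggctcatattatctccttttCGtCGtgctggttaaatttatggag
Tbc1d16: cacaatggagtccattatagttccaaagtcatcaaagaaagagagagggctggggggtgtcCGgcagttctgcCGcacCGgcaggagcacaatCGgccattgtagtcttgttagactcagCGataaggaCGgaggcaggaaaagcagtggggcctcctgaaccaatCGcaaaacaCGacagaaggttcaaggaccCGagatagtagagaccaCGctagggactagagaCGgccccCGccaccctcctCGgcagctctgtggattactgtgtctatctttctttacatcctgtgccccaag
Bmper: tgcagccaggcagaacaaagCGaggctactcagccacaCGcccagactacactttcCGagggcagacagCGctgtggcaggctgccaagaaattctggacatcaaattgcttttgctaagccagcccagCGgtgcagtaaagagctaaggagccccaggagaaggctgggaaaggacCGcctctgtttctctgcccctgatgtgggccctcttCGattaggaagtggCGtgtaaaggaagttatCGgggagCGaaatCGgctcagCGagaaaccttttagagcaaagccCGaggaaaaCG
Fam105a: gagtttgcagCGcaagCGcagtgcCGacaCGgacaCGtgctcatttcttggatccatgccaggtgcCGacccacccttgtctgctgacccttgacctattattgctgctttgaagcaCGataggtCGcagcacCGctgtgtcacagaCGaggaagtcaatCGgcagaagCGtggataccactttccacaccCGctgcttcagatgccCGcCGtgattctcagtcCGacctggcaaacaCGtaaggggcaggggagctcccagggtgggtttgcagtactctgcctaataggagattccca
Chd7: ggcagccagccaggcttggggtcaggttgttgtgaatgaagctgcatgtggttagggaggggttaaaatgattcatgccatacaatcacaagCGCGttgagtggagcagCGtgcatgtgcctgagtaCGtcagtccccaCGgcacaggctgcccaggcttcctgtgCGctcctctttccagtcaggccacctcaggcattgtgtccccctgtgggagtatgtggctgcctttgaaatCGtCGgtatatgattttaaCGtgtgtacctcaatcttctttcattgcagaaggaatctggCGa

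These windows held 7, 11, 13, 14, 17 and 10 CpGs in the order given. Over their whole length the 6 regions had 2.29, 2.55, 2.33, 2.44, 3.0 and 1.86 CpGs per 100 bp, against 2.11 over all common regions and 1.14 in the flanks 2 to 3 kb away. Only the *Vps13d* region touched a CpG island.

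The region nearest *Cadm1*, which encodes a cell adhesion molecule, was the only 1 of the 12313 with a peak in all 10 WT libraries. It spans chr9:47166001-47166700, lies 172 kb from the gene and holds 16 CpGs at a GC content of 55.9%. Its *Tdg* null peaks were 700, 1000, 1000 and 1100 bp wide in hindbrain of litters A, O, Q and Z, 1000 and 1100 bp in heart, 900 bp in liver of pair_a and 900 and 1100 bp in carcass. The WT peaks were 500, 700, 800 and 700 bp wide in hindbrain, 700 and 900 bp in heart, 700 and 400 bp in liver and 800 and 900 bp in carcass. The *Tdg* null peak was wider than the WT peak in all 9 pairs of littermate tissues used by the selection. The selection made each of these *Tdg* null peaks cover the whole region of 700 bp, and WT peaks had no such condition. The count is therefore a description and no comparison of the genotypes. The widths of the genotypes overlapped in hindbrain and met at 900 bp in carcass, and the excluded *Tdg* null liver of pair_b had no peak here.

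**Figure D1:**
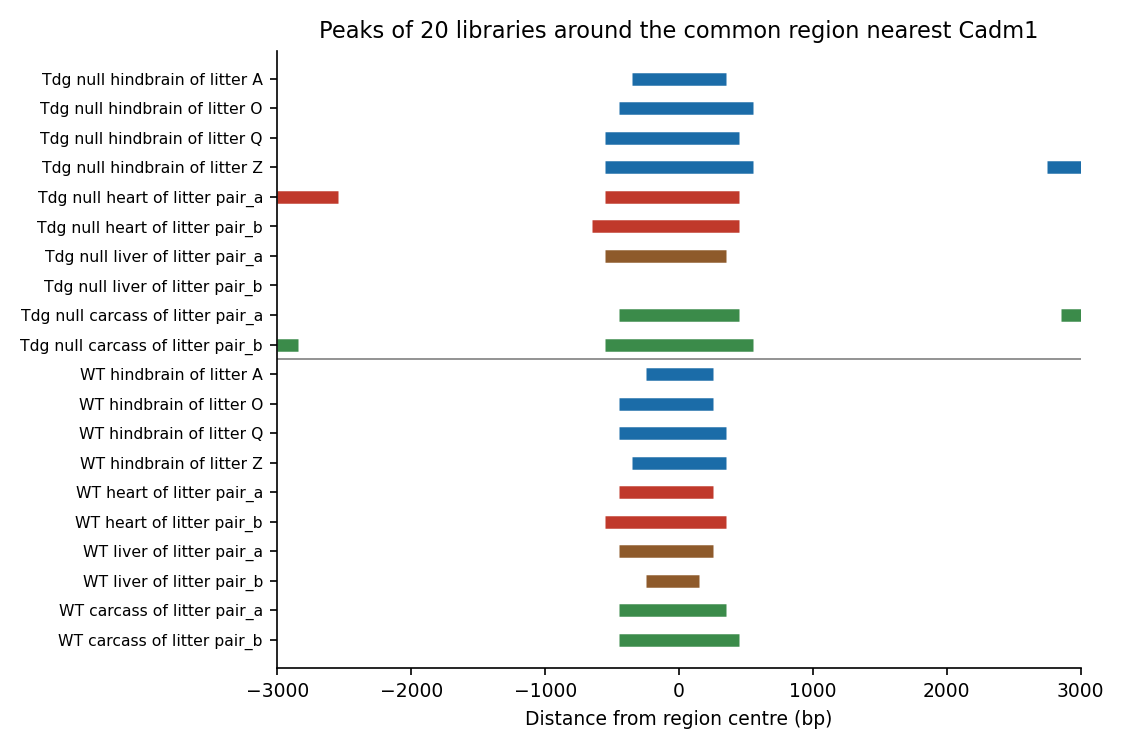
Peaks of all 20 libraries within 3 kb of the centre of the common region nearest Cadm1, with distance in bp on the x axis and 1 row per library (blue hindbrain, red heart, brown liver, green carcass; Tdg null above the line, WT below). A peak covers the centre in 9 of 10 Tdg null libraries and in 10 of 10 WT libraries, and the row of the Tdg null liver of pair_b is empty.

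A further 5 regions had a peak in 9 WT libraries. In the intron of *Vps13d*, a lipid transfer protein, chr4:144589401-144590500 lacked a peak only in WT liver of pair_b. Near *Tbc1d16*, which encodes a GTPase-activating protein of Rab GTPases, chr11:118995601-118996500 lacked one only in WT hindbrain of litter Z. At chr9:22887801-22888700, 139 kb from the BMP-binding protein gene *Bmper*, at chr15:27595001-27595800 in *Fam105a* and at chr4:8738101-8738800 in *Chd7*, a chromatin remodeller, WT heart of pair_a was the library without a peak. These 3 regions were thus missing from the same WT heart library. Another 19 regions had a peak in 8 WT libraries, and the 4 with the most bases under WT peaks, summed over libraries, are named. These 4 lay over a coding exon of the RNA-binding protein gene *Rbpms* (47 CpGs in 1300 bp), in an intron of *Gm17231* and *Arid3b*, which overlap there, over a UTR exon and the promoter of *Lmln* and 19.9 kb from *Zfp664*. WT carcass of both litters had a peak at all 10 named regions.

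The common regions were 200 to 2900 bp long, within the limits of the rule. Their median was 600 bp (quartiles 500 and 800 bp), 304 were at the lower limit of 200 bp and 1739, or 14.1%, reached 1000 bp. The median over all 392984 stretches was 700 bp (quartiles 500 and 1000 bp). The limits removed 136 stretches of 100 bp, just under the lower one, and 3 of 3000 bp or more, of which the longest had 3700 bp. In all the regions covered 8.38 Mb, which is 0.350% of the ungapped autosomes and 2.39% of the 350 Mb under a peak of at least 1 of the 9 libraries. Thus most bases under *Tdg* null peaks were not shared by all 9 libraries. This is a share over libraries and not over tissues. The looser rule of a peak in at least 1 library of each of the 4 tissues, which every bin of the common regions meets by construction, gave 40411 regions.

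The 5 longest regions were not those with the most WT peaks. The longest were both 2900 bp long, in an intron of the growth factor receptor gene *Pdgfrb* (chr18:61214401-61217300, 63 CpGs) and over an exon of a non-coding transcript annotated as *Ttc28* (chr5:111656001-111658900, 54 CpGs), and neither had a peak in any of the 10 WT libraries. The region of 2700 bp in an intron of *Mxra7* (chr11:116673901-116676600, 66 CpGs) had a peak in both WT carcass libraries and in 1 WT hindbrain library. The intergenic region of 2600 bp at chr16:30184901-30187500, 69.0 kb from *Cpn2*, had a peak in 1 WT hindbrain and 1 WT liver library. The region of 2500 bp in an intron of *Prox1*, a homeobox factor of liver and lymphatic development (chr1:191971601-191974100, 62 CpGs), had a peak in both WT carcass libraries only.

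The number of regions was set largely by 2 libraries. Of the 121558 bins under exactly 8 of the 9 libraries, 37.5% lacked only *Tdg* null heart of pair_b and 34.8% lacked only *Tdg* null liver of pair_a, while *Tdg* null heart of pair_a was the missing library in 0.267%. Without *Tdg* null heart of pair_b the same rule gave 18858 regions, and without *Tdg* null liver of pair_a 18613, whereas leaving out any other library gave 12384 to 13466. Autosomal peaks per library ranged from 100553 in *Tdg* null liver of pair_a to 251271 in *Tdg* null heart of pair_a, and from 4.86% to 12.2% of them lay on a common region. Peaks on common regions had a median width of 800 to 1200 bp in the 9 libraries, and the other peaks one of 500 to 700 bp. These peaks chose the regions, and a wide peak has more bins that can be shared, so the selection itself favours wide peaks.

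The excluded *Tdg* null liver of pair_b contained 206 autosomal peaks with a median width of 300 bp. Of these, 2 lay on common regions (0.971%, 95% exact binomial interval 0.118% to 3.46%, counting error only), and 66 lay on a peak of at least 1 of the 9 libraries. Requiring this library as the 10th left 2 regions.

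Common regions were found on all 19 autosomes, from 3.87 per Mb on chromosome 7 to 6.43 per Mb on chromosome 19. As a share of the bases under any *Tdg* null peak they ranged only from 2.09% (chromosome 7) to 2.63% (chromosome 5). Neighbouring regions lay a median of 64.7 kb apart (quartiles 23.3 and 167 kb), 203 gaps were under 2 kb, and the longest was 12.9 Mb. Of 2482 windows of 1 Mb, 624 held no common region and 33 held 20 or more. The densest window, chr8:123000001-124000000, held 36 regions, followed by chr13:44000001-45000000 with 30 and chr4:149000001-150000000 with 28.

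Whether the common regions also carried 5fC in WT tissues was asked next, with libraries that took no part in their selection. WT libraries were sparse, with 1507 to 41464 autosomal peaks. In WT hindbrain, 224 (1.82%), 1606 (13%), 2910 (23.6%) and 205 (1.66%) of the 12313 regions had a peak in litters A, O, Q and Z. In WT carcass it was 4392 (35.7%) in pair_a and 4021 (32.7%) in pair_b, so carcass held a peak at more common regions than any other tissue. In WT heart it was 333 (2.70%) and 584 (4.74%), and in WT liver 1169 (9.49%) and 154 (1.25%). The order of the libraries broadly followed their numbers of peaks, although WT liver of pair_a, with 16368 peaks, had one at fewer common regions than WT hindbrain of litter O. WT hindbrain libraries A and Z, with 1515 and 1507 peaks, stood apart from O and Q, with 8902 and 21063.

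Against the other autosomal bins under *Tdg* null peaks, those under 1 to 8 of the 9 libraries, the common regions were more covered in every WT library. In WT hindbrain 1.32%, 9.66%, 19.6% and 1.12% of common bases lay under a WT peak in litters A, O, Q and Z, against 0.189%, 0.979%, 2.64% and 0.174% of the other bases. In WT carcass the shares were 30.7% and 28.5% against 5.55% and 4.65%. In WT heart they were 1.67% and 3.56% against 0.427% and 0.707%, and in WT liver 7.25% and 0.874% against 1.63% and 0.193%. The log2 ratio was 2.71 ± 0.391 (SD, n = 6 litters, tissues of a litter averaged first), or 6.54-fold, and was above 0 in 6 of 6 litters and 10 of 10 libraries (lowest 1.97, WT heart of pair_a). The two-sided exact sign-flip test over litters gave p = 0.03125, the smallest p that 6 litters allow, and 0.09375 after Benjamini-Hochberg adjustment over the 3 tests made here, which is above 0.05. The selection fixes how many *Tdg* null libraries cover these bases, and that WT and *Tdg* null peaks overlap in general is part of this ratio.

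Coverage in WT was mostly higher the more *Tdg* null libraries shared a bin. It was highest at 9 in 10 of 10 WT libraries and went up at every step from 1 to 9 in 5 of them. In WT carcass of pair_a it went from 1.58% of bins under 1 *Tdg* null library to 24.7% under 8 and 30.7% under 9, and in WT hindbrain of litter O from 0.0966% to 6.96% and 9.64%. The step from 8 to 9 libraries was a factor of 1.04 in WT heart of pair_b, 1.82 in WT heart of pair_a and between these in the other WT libraries. The common regions are thus the end of a gradient over bins. Bins under fewer libraries can be the edges of the same peaks that hold a common region. The part of such edges in the gradient was not tested. Against bins under exactly 8 libraries the log2 ratio was 0.41 (exact sign-flip p = 0.03125).

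**Figure D2:**
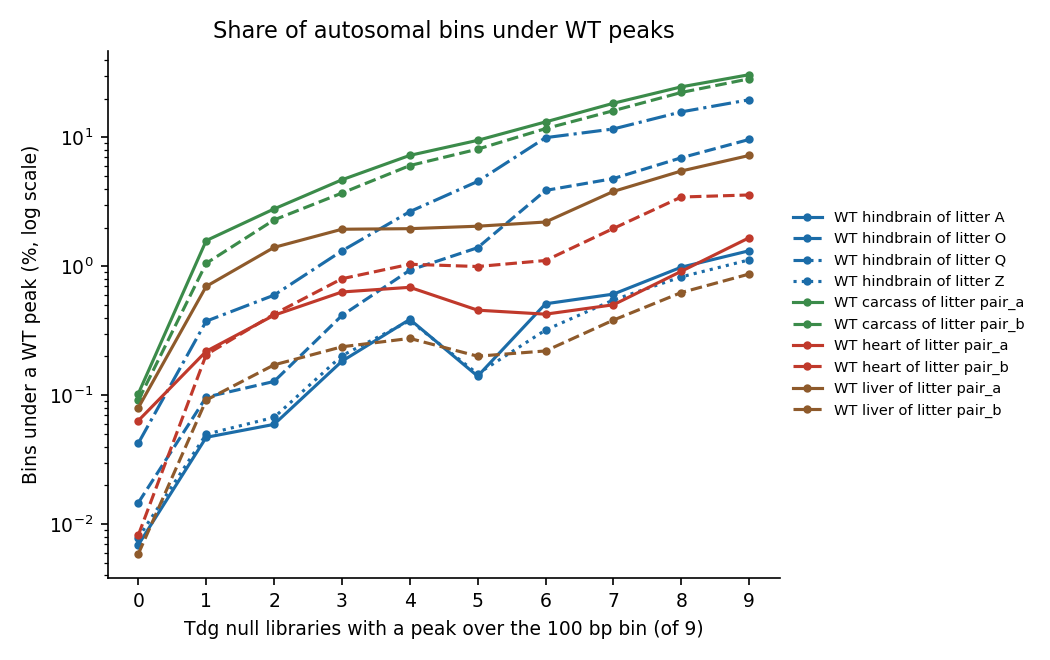
Share of autosomal 100 bp bins under a WT peak (log axis, %) against the number of the 9 Tdg null libraries with a peak over the bin, with 1 line for each of the 10 WT libraries, coloured by tissue. All lines are highest at 9, at 30.7% in WT carcass of pair_a and 0.871% in WT liver of pair_b.

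Many common regions had a WT peak in only 1 or a few libraries. A peak in at least 1 of the 10 WT libraries was found at 7046 regions (57.2%), where 16.9% of the 392984 stretches under any *Tdg* null library had one. In at least 5 WT libraries it was 476 regions (3.87%), against 0.491% of all stretches. The remaining 5267 regions (42.8%) had no peak in any WT library. A peak in 10 of 10 WT libraries was not more frequent than in the background, with 1 common region (0.00812%) against 42 of all stretches (0.0107%). These comparisons are of counts, with no test, since the regions of a library are not replicates. The sets are not nested, because a common region can lie in a longer stretch under any *Tdg* null library that the upper limit removed.

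**Figure D3:**
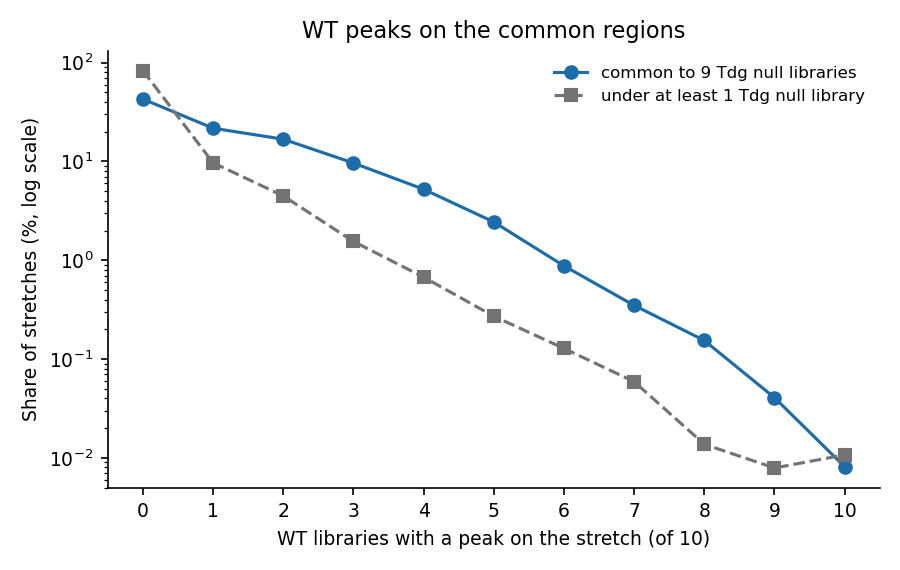
Share of stretches (log axis, %) with a peak in 0 to 10 of the 10 WT libraries, for the 12313 common regions (circles) and the 392984 stretches under at least 1 Tdg null library (squares). The common regions lie above the other line from 1 to 9 WT libraries and below it at 0 (42.8% against 83.1%) and 10.

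By tissue, 5436 regions (44.1%) had a peak in at least 1 WT carcass library and 2977 (24.2%) in both. In WT hindbrain 3456 (28.1%) had a peak in at least 1 of 4 libraries and 36 in all 4. In WT liver and heart 1239 and 831 regions had a peak in at least 1 library, and 84 and 86 in both. The most frequent combinations were carcass alone (2629 regions), hindbrain with carcass (1557) and hindbrain alone (1053), while 152 regions (1.23%) had a peak in at least 1 WT library of each of the 4 tissues. The number of WT peaks per tissue moved with this order, and its part was not tested.

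Common regions did not exceed regions of the same tissue alone in all tissues. Stretches covered in every *Tdg* null library of a tissue and in no other of the 9 numbered 3565 for hindbrain, 47823 for heart, 41562 for carcass and 11335 for liver. They were built from bins, so such a stretch can be the edge of a wider peak whose other bins are shared with other libraries. The part of peak edges in comparisons with these sets was not tested. In WT liver 7.25% and 0.874% of common bases were covered, against 0.470% and 0.0661% of liver-only bases. In WT carcass common bases were likewise covered more, at 30.7% and 28.5% against 4.88% and 4.66%, and in WT heart 1.67% and 3.56% stood against 0.682% and 0.301%. In WT hindbrain of litters A and Z, however, hindbrain-only bases were covered more, at 7.43% and 6.77% against 1.32% and 1.12%, and in O and Q the shares were near each other, at 10.3% and 16.3% against 9.66% and 19.6%. The log2 ratio over litters was 0.169 ± 2.48 (n = 6), above 0 in 3 of 6 litters, with an exact sign-flip p of 0.7188 (0.7188 adjusted). The mean turned negative without litter pair_a (-0.32) or pair_b (-0.46). The tissue-only sets rest on 4 libraries in hindbrain, 2 in heart and carcass and 1 in liver, and since hindbrain came from other litters, tissue and litter cannot be told apart.

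WT peaks centred in common regions were as wide as other WT peaks under *Tdg* null libraries in 6 WT libraries and wider in 4. Their median width was 500 bp in 6 WT libraries, equal to the other peaks. It was 600 bp against 500 bp in WT hindbrain of litter Q, WT carcass of pair_a and WT liver of pair_a, and 700 bp against 500 bp in WT carcass of pair_b. The log2 ratio was 0.10 ± 0.115 (n = 6 litters) with an exact sign-flip p of 0.25 (0.3750 adjusted). The ratio was above 0 in 3 litters and tied at 0 in the other 3, so that 0.25 was the smallest p this test could give here, and it could not have passed.

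WT peaks were sharply centred on the common regions. At the centre of the region a WT peak was present in 1.65%, 11.9%, 22.0% and 1.42% of regions in hindbrain litters A, O, Q and Z, and 4 to 5 kb away in 0.0384%, 0.334%, 0.855% and 0.0365% of positions. In WT carcass the shares were 33.7% and 31.2% at the centre and 1.88% and 1.65% at 4 to 5 kb. The ratio of centre to flank ranged from 13.2 in both WT liver libraries to 42.9 in WT hindbrain of litter A. CpG density was centred in the same way, at 2.11 CpGs per 100 bp in the regions and 1.14 in flanks 2 to 3 kb from either edge.

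**Figure D4:**
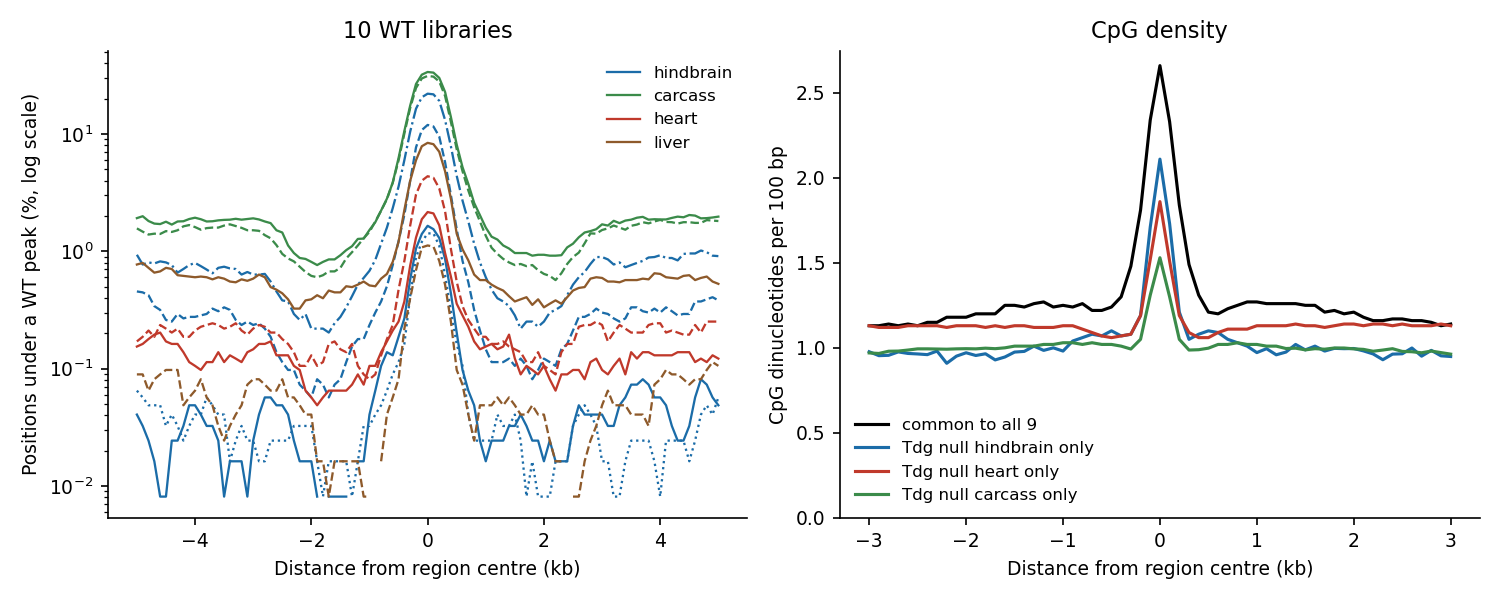
Left, share of positions under a WT peak (log axis, %) by distance in kb from the centre of the 12313 common regions, with 1 line per WT library coloured by tissue and gaps where no position was covered. Right, CpG dinucleotides per 100 bp by distance from the centre of common regions (black) and of regions of Tdg null hindbrain, heart or carcass only. WT peaks and CpGs are both highest at the centre, and the common regions have the highest CpG density of the 4 sets.

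The common regions were richer in CpG than the hindbrain-, heart- and carcass-only regions. Liver-only regions, which rest on 1 library, were not used in the comparisons of sequence and position. Density was 2.11 CpGs per 100 bp, against 1.73 in hindbrain-only, 1.47 in heart-only and 1.27 in carcass-only regions, while the flanks of the 4 sets had 1.14, 0.967, 1.13 and 0.978. The observed over expected CpG ratio was 0.346 in common regions and 0.224 in their flanks, so CpG was scarcer than base composition would give in both. Median GC content was 48.8% (quartiles 46.0% and 51.8%) in common regions, 44.9% in their flanks, and 47.3%, 47.2% and 43.5% in the hindbrain-, heart- and carcass-only regions. Only 7 of the 12313 regions had no CpG (0.0569%), against 1.43%, 1.32% and 3.33% of the tissue-only sets. The tissue-only regions were also shorter, with medians of 400, 500 and 500 bp. The part of length, of GC content and of peak edges in these differences was not tested.

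Among the common regions themselves, those with more CpG more often had a WT peak. The share with a peak in at least 1 WT library was 28.0% of the 132 regions with 0.5 to under 1 CpG per 100 bp, 41.2% of 1765 regions with 1 to under 1.5, 54.7% of 3655 with 1.5 to under 2, 62.5% of 5551 with 2 to under 3 and 67.2% of 1203 with 3 or more. The 7 regions below 0.5 included 3 with a WT peak. Regions without a WT peak and regions with a peak in 5 to 7 WT libraries had densities of 1.98 and 2.44 and median lengths of 600 and 800 bp, so regions with more WT libraries were longer as well, and the part of length was not tested. When bins were compared within classes of CpG number, the log2 ratio of WT coverage in common regions to other *Tdg* null bins was 2.53 (exact sign-flip p = 0.03125).

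More common regions lay in genes than the genome average. Genes covered 61.8% of their bases and 41.8% of ungapped autosomal bases, which is a log2 ratio of 0.56. Introns held 55.7% (log2 0.54), coding exons 2.85% (0.98), UTRs 2.45% (0.76) and promoters, the 1000 bp before a transcription start, 3.06% (0.82), while intergenic bases were fewer, at 38.2% (-0.61). In counts, 7203 regions touched an intron, 1101 a coding exon, 755 a UTR, and 5008 touched intergenic sequence. The median distance to the nearest start of a protein-coding transcript was 28.9 kb (quartiles 8.53 and 81.2 kb), with 764 regions (6.20%) within 1 kb and 2527 (20.5%) over 100 kb away. Only 627 regions (5.09%) touched a promoter, or 990 (8.04%) with the promoter taken from 2000 bp before to 500 bp after the start, so most of the common regions lay away from promoters by either definition.

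The tissue-only regions differed from the common ones in both directions. Genes covered 67.6% of heart-only bases, above the 61.8% of common regions, and 49.7% and 50.3% of hindbrain-only and carcass-only bases. Coding exons were more frequent in heart-only (3.78%) and hindbrain-only (4.42%) than in common bases, and least in carcass-only bases (1.22%). Promoters were most frequent in common regions, at 3.06% of bases against 2.28%, 2.66% and 1.27% in hindbrain-, heart- and carcass-only regions.

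CpG islands, here stretches of at least 200 bp with 50% GC and an observed over expected ratio of 0.6, were touched by 1525 common regions (12.4%). The shares were 4.80%, 3.70% and 2.48% in hindbrain-, heart- and carcass-only regions, and islands took up 4.97% of common bases and 1.47% of autosomal bases (log2 1.76). The shores within 2 kb of an island took up 21.6% of common bases and 10.1% of autosomal bases. This depended on the definition. With strict islands, of at least 500 bp, 55% GC and an observed over expected ratio of 0.65, 140 regions (1.14%) touched one and the share of bases was 0.528% against 0.567% of the autosomes, a log2 ratio of -0.10. Most islands at common regions thus did not meet the strict definition, and the strict-island share was above that of hindbrain-, heart- and carcass-only bases (0.365%, 0.127% and 0.125%). An island was touched by 9.15% of regions without a WT peak, 12.6% with 1 to 2, 17.3% with 3 to 4 and 27.9% with 5 to 7 WT libraries, and by 6 of the 25 regions (24%) with 8 to 10.

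Short sequence motifs were searched in the central 200 bp of each region on both strands and in windows of the same length 3 kb to either side. CCGG was found in 34.9% of the centres and 14.1% of the flanks, GCGC in 22.4% and 9.64%, and GGGCGG, the core of SP and KLF sites, in 6.36% and 2.91%. These motifs hold a CpG, and the part of CpG density in their frequency was not tested. Among motifs that need no CpG, the TEAD core GGAATG was in 14.0% of centres and 10.7% of flanks, the GATA core AGATAA in 12.8% and 10.9%, the NFI half-site TTGGC in 32.1% and 28.3%, the pair of NFI half-sites, which contains it, in 0.114% and 0.0284%, the E-box CANNTG in 70.9% and 67.3% and the AP-1 site TGANTCA in 7.56% and 6.05%. The SOX core ACAAAG (18% and 17.4%), the Meis and Pbx motif TGATTGA (2.47% and 2.30%) and the FOX motif TGTTTAC (3.07% and 2.98%) were nearly level, and the homeobox core TAATTA was rarer in centres (4.92% and 5.69%).

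Some motifs differed more between the tissue-only regions. The GATA core was in 20.1% of heart-only centres, 12.8% of common, 9.72% of carcass-only and 5.95% of hindbrain-only centres, with 10.9% to 12.4% in the flanks of the 4 sets. The SOX core was in 26.6% of hindbrain-only, 18% of common, 17.5% of carcass-only and 16.1% of heart-only centres, and TAATTA in 7.64% of carcass-only, 5.02% of hindbrain-only, 4.92% of common and 2.35% of heart-only centres. For these 3 motifs the common regions lay between the tissue-only sets, which did not hold for every motif. The TEAD core was in 14.0% of common centres, against 12.1%, 13.6% and 11.6% of hindbrain-, heart- and carcass-only centres. The FOX motif was in 3.07% of common centres, against 2.69%, 2.32% and 2.72%. A match of letters is a description of the sequence and shows no binding.

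Of 21150 autosomal protein-coding genes, 3474 (16.4%) held the midpoint of a common region. The share went with gene length and was 3.0% for genes under 10 kb, 9.53% for 10 to 30 kb, 27.0% for 30 to 100 kb, 59.4% for 100 to 300 kb and 72.5% for genes of 300 kb or more, and genes with a common region had a median length of 73.9 kb against 11.8 kb without. Per length, genes held 0.749 common regions per 100 kb, and 0.573 to 0.940 in the 5 length classes. There were 285 genes with 5 or more regions and 42 with 10 or more, while 2068 had 1.

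The 15 genes with most common regions were 274 kb or longer and included gene models that span their neighbours. *Gm20388*, *Fgfr2* and *Arfip1*, with 92, 21 and 16 regions, are annotated here over 4435, 3009 and 1391 kb and overlap 74, 32 and 6 other protein-coding genes, so their counts belong to no single gene. *Auts2*, a gene of neural development, held 26 regions in 1106 kb, of which 15 had a WT peak and 24 lay wholly in introns. *Sox5*, a transcription factor of cartilage and neural development, held 21 in 954 kb, all intronic, with a WT peak at 13. *Sdk1* (cell adhesion) and *Rbms3* (RNA binding) held 17 each, *Wwox* 16, and *Maml3* (Notch coactivator), *Msi2* (RNA binding), *Bcas3*, *Magi1* and *1700112E06Rik* 15 each. *Igf1r*, the insulin-like growth factor receptor, held 14 in 274 kb, or 5.11 per 100 kb, and *Mecom*, a zinc finger regulator of blood stem cells, 14 in 597 kb.

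Several of these genes also held many tissue-only regions. *Auts2* held 78 carcass-only, 36 heart-only and 1 hindbrain-only regions, and *Sox5* 44, 25 and 5. *Igf1r* held 39 heart-only and 7 carcass-only regions. Since heart-only and carcass-only regions outnumber common ones, these numbers show where regions of each kind lay and not an excess.

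Among genes with at least 4 common regions, the highest density was in *Gpr146*, with 4 regions in 18.7 kb (21.4 per 100 kb), followed by *Myl4*, an atrial and embryonic myosin light chain, with 5 in 45.1 kb (11.1) and *Eng*, the endothelial TGF-beta coreceptor endoglin, with 4 in 36.1 kb (11.1). *Gpr146* lies within the overlapping model *3110082I17Rik*, which held 7 regions in 101 kb. *Stx7*, a syntaxin of endosomes, had 10.1 per 100 kb, *Smyd2*, a lysine methyltransferase, 9.55, and *Ccnjl* 8.59 from 5 regions of which none had a WT peak. *Zbtb38*, which encodes a protein that binds methylated DNA, had 7.14 from 5 regions and a WT peak at 4. *Ypel2* had 6.98, and *Hmga2*, an architectural factor of embryonic growth, 6.94 from 8 regions in 115 kb with a WT peak at 5.

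Lists of genes for pathways and tissues of the embryo were then set beside the 16.4% of all genes. Of 16 lists, 14 had a higher share of genes with a common region and 13 had more regions per 100 kb than the 0.749 of all genes. In 12 lists the median gene was longer than the 15.5 kb of all genes, so the density per length is given beside each share. Of the common regions in a list, 27.3% (DNA methylation, oxidation and base excision) to 63.2% (heart genes) had a WT peak, apart from the ribosomal list with its single region, against 55.4% of all common regions in genes. No list was tested, and genes of a list were chosen with earlier results of these data known.

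NFI, Meis and Pbx factors, homeobox and CTF-type regulators active in many embryonic tissues, had the highest share and density, with a common region in 8 of 13 genes (61.5%) and 1.96 regions per 100 kb. Their median length was 139 kb, and of all genes of 100 to 300 kb 59.4% held a common region, so the share is near that of genes of this length. *Nfib* held 12 regions in 416 kb with a WT peak at 4 and *Nfia* 9 in 429 kb with a WT peak at 6. The longest region of the list, 2000 bp with 36 CpGs in an intron of *Meis1* (chr11:18843901-18845900), had a peak in both WT carcass libraries and in no other WT library.

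The lists of signalling pathways ranged from 0.952 to 1.81 regions per 100 kb. In the Hedgehog pathway 6 of 15 genes (40%) held 18 regions, or 1.81 per 100 kb, among them the effector *Gli2* with 6, its inhibitor *Sufu* with 4 and the coreceptor *Boc* with 3. The longest, 2300 bp with 43 CpGs in an intron of *Gli2* (chr1:120930601-120932900), had a peak in 2 WT hindbrain and both WT carcass libraries. In the Wnt pathway 20 of 46 genes (43.5%) held 44 regions, or 1.51 per 100 kb. The transcription factors *Tcf7l1* and *Lef1* held 6 and 4, the coreceptor *Lrp6* 5 and the feedback inhibitor *Axin2* 2, of which 1 had the longest stretch of the list (1700 bp, 42 CpGs, chr11:108808501-108810200). In the Notch pathway only 4 of 24 genes (16.7%) held a region, near the 16.4% of all genes, and 15 of its 19 regions lay in *Maml3*, so that the density of 1.56 per 100 kb rests on that gene. *Notch1* held 2, *Heyl* and *Maml2* 1 each, and a *Maml3* region of 1600 bp with 40 CpGs (chr3:51833201-51834800) had a peak in 3 WT hindbrain and 1 WT carcass library.

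The TGF-beta and BMP list had 21 of 41 genes (51.2%) and 1.29 regions per 100 kb. *Smad3*, a signal transducer of TGF-beta, held 5, *Ltbp1*, which binds the latent ligand, 5 and *Zeb2*, a SMAD-interacting repressor, 4. The longest *Smad3* region, 1600 bp with 34 CpGs (chr9:63602401-63604000), had no WT peak, and 17 of the 43 regions of the list (39.5%) had one, against 55.4% of all common regions in genes. In the receptor tyrosine kinase and MAPK list 20 of 40 genes (50%) had 0.952 per 100 kb, with *Igf1r* at 14 and the adaptor *Gab1* at 5, but 21 of its 64 regions lay in the *Fgfr2* model that spans its neighbours. In the retinoic acid pathway 9 of 18 genes (50%) held 12 regions, or 1.23 per 100 kb, with 2 each in the receptor genes *Rxra* and *Rarb*. The longest, 1100 bp over a coding exon and the promoter of *Aldh1a3*, a retinaldehyde dehydrogenase (chr7:73550301-73551400), had a peak in 1 WT hindbrain library. In the Hippo pathway 11 of 20 genes (55%) had 1.17 per 100 kb, with *Tead1* at 5 and its coactivator *Yap1* and the protocadherin *Dchs1* at 2 each, and a region of 1400 bp with 60 CpGs over exons of *Tead3* had a peak in 7 WT libraries of all 4 tissues.

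**Figure D5:**
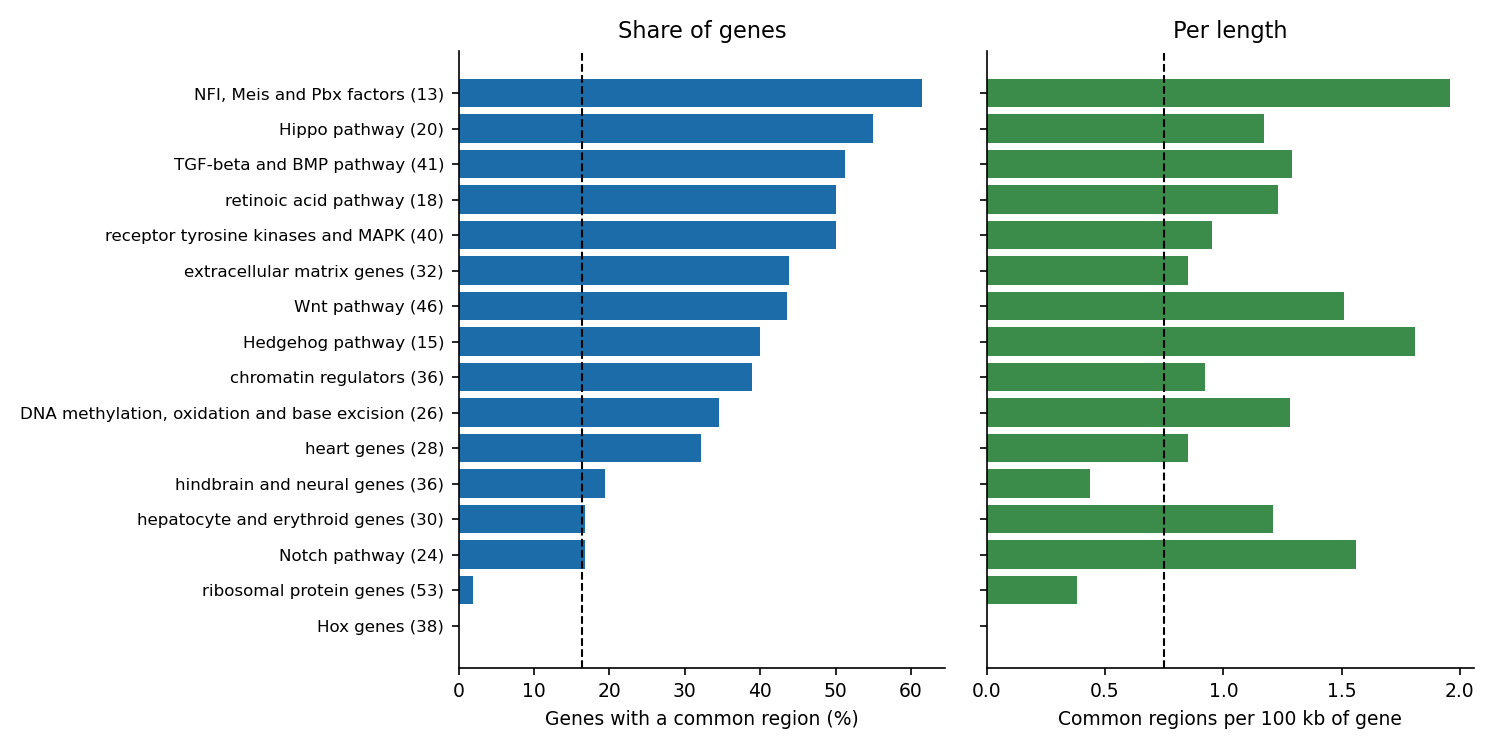
Share of genes that hold the midpoint of a common region (left, %) and common regions per 100 kb of gene (right) for 16 gene lists, with the number of genes matched in parentheses and dashed lines at the values of all 21150 autosomal protein-coding genes (16.4% and 0.749). The NFI, Meis and Pbx list is highest in both, and the Hox list is at 0.

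Genes of the demethylation pathway were themselves among the members. In the list of DNA methylation, oxidation and base excision 9 of 26 genes (34.6%) held 11 regions, or 1.28 per 100 kb. The dioxygenase gene *Tet3* and the methyltransferase gene *Dnmt3a* held 2 each, and *Tet1*, *Dnmt1*, *Uhrf2*, *Mbd2*, *Ung*, *Neil2* and *Gadd45a* 1 each. *Tdg* held none, but part of the gene is deleted in the embryos whose peaks chose the regions. Of the 11 regions 3 had a WT peak (27.3%, against 55.4% of all common regions in genes), among them the longest, 800 bp in an intron of *Uhrf2* (chr19:30108501-30109300), in 1 WT hindbrain and both WT carcass libraries. Among chromatin regulators 14 of 36 genes (38.9%) had 0.922 per 100 kb, led by *Arid1b*, a subunit of the SWI/SNF remodeller, with 11 and *Chd7* with 6.

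Lists of structural and tissue genes ranged from 0.435 to 1.21 regions per 100 kb. Extracellular matrix genes held common regions in 14 of 32 (43.8%) at 0.850 per 100 kb, led by the laminin gene *Lamc1* with 5 and the collagen genes *Col18a1* and *Col4a2* with 4 each. The longest of the list, 1400 bp over a coding exon of *Col4a2* (chr8:11405501-11406900), had no WT peak. Heart genes reached 9 of 28 (32.1%) and 0.852, with 7 in the calcium channel gene *Cacna1c* 4 in *Myocd*, the coactivator of smooth and cardiac muscle genes, all with a WT peak, and 2 in the transcription factor gene *Mef2c*. The *Myocd* region of 1000 bp over a coding exon (chr11:65018001-65019000) had a peak in 2 WT hindbrain and both WT carcass libraries and in neither WT heart library. On the same scale heart genes held 12.2 heart-only regions per 100 kb, against 3.24 over all genes, whereas hindbrain and neural genes held 0.174 hindbrain-only regions per 100 kb, against 0.180 over all genes. Hepatocyte and erythroid genes reached 5 of 30 (16.7%), a share close to that of all genes, and 1.21 per 100 kb, with 4 each in the red cell skeleton genes *Spnb1* and *Ank1*, 2 in *Zfpm1*, the cofactor of GATA factors, and the 1 in *Prox1* described above. Hindbrain and neural genes had 7 of 36 (19.4%) and 0.435 per 100 kb, below the 0.749 of all genes, with 6 in the adhesion molecule gene *Ncam1* 5 in the guidance receptor gene *Robo1* and 3 in *Slit2*, its ligand. The longest region of this list, 1200 bp in an intron of *Elavl4* (chr4:109899801-109901000), had a peak in 1 WT carcass library.

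The ribosomal and Hox lists hold short genes, with medians of 3.57 and 4.04 kb, and genes under 10 kb held a common region in 3.0% of cases. Of 53 ribosomal protein genes 1 (1.89%) held one, *Rps15*, at 0.380 per 100 kb over a summed length of 263 kb, and 11 did with 10 kb on either side included. None of 38 Hox genes held a common region, and none did with 10 kb on either side. Hox genes add up to only 250 kb, and 3 of them held a carcass-only region.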

How the data were processed

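5fC-enriched DNA from hindbrain, heart, liver and carcass of *Tdg* null and WT embryos was sequenced by the authors, who trimmed reads with Trim Galore, aligned them with Bowtie2 to NCBIM37 (mm9) and called peaks in each library separately with the MACS method of SeqMonk, for fragments of 200 bp and with 1e-05 as the highest p-value accepted. The deposited files hold peak positions only, in 3 columns and on a 100 bp grid, without heights, p-values or counts. Depth is therefore unknown, and a weak site in a shallow library is listed as no peak.

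Here the 19 autosomes were divided into 100 bp bins and joined into stretches as described. The share of bases under WT peaks was compared between kinds of region in each WT library, as log2 ratios averaged within litter, with a two-sided exact sign-flip permutation test over 6 litters and Benjamini-Hochberg adjustment over 3 tests. Replicate numbers were not used to pair genotypes. The smallest p that 6 litters allow is 0.03125. Genes were those of GENCODE M1, and 268 with a shared symbol were left out. A gene holds a region if the region's midpoint lies in it. CpG islands and motifs were found in the NCBIM37 sequence. Sequences are from that genome.

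The regions named are the 10 with a peak in most WT libraries, the 5 longest and the longest of each gene list. Ties in WT libraries were broken by bases under WT peaks summed over libraries, then by length. The genes named are the 15 with most regions, the 10 densest among those with at least 4, and the 3 with most regions in each list, and other list members are named where a count is itemised. Some items that this rule selects are not reported here. The members, lists and tests were chosen with earlier results of these data known. Python 3.11.15, numpy 2.4.6, pandas 2.3.3, scipy 1.17.1, matplotlib 3.10.9 and samtools 1.23.1 were used, and the scripts were tested on simulated data. Alternatives to the libraries required, peak and stretch lengths, comparison bins, overlap rule, promoter, island and gene window were run.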

Additional observations from a re-analysis of the deposited data

Results flagged for a closer look

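In WT hindbrain of litter Q the log2 ratio of the median width of peaks in common regions to that of other peaks was 0.26, while it was 0.00 in WT hindbrain of the other 3 litters. It exceeded Dixon's limit for 4 samples, but the medians lie on a 100 bp grid (600 bp against 500 bp) and the other 3 were tied, so a single step of the grid is enough to exceed it.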

How the results depend on the processing

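The verdict on a setting used the unadjusted exact p against 0.05. The log2 ratio of WT coverage in common regions over other *Tdg* null bins was 2.71. It ranged from 2.59 to 2.81 without 1 litter (p = 0.06250, the smallest exact p that the 5 litters left allow) and was 2.92 with hindbrain litters only (exact p = 0.1250, the smallest for 4). It kept its direction and stayed past the threshold at 0.41 to 2.75 in the other settings, lowest against bins under exactly 8 libraries. Without the replicate block it was 2.71 (exact permutation p = 0.01948). The ratio over regions of the same tissue only was 0.17 and ranged from -0.46 to 0.72 without 1 litter, turning negative without pair_a (-0.32) or pair_b (-0.46), with hindbrain litters only (-1.23) and with stretches of at least 400 bp (-0.09). Without the block it was 0.17 (exact permutation p = 0.8528). The width ratio of 0.10 ranged from 0.07 to 0.12 without 1 litter, and without the block its exact permutation p was 0.1818. The block changed no call.

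The number of regions ranged from 12384 to 18858 without 1 library, was 2 with the excluded *Tdg* null liver, 40411 with at least 1 library of each tissue and 8835 to 12316 with other peak or stretch limits. Regions with a WT peak were 6193 to 7040 without 1 WT library, an alternative chosen after seeing the data, and 6576 and 6705 under the other overlap rules. Regions touching a promoter went from 627 to 990 and those touching a CpG island from 1525 to 140 under the other definition. Genes with a region went from 3474 to 4900 with 10 kb on either side, and the Notch, heart, hepatocyte and erythroid, and ribosomal lists from 4 to 8, 9 to 16, 5 to 9 and 1 to 11. Peak calls without depth limit what can be said of regions without a WT peak.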

Other observations

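WT peaks, which were most frequent at the centre of the common regions, were less frequent at 1 kb from it than at 4 to 5 kb. At 1 kb from the centre, 0.191% of positions lay under a peak in WT hindbrain of litter O and 1.56% in WT carcass of pair_a, against 0.334% and 1.88% at 4 to 5 kb. The value at 1 kb was below that at 4 to 5 kb in 10 of 10 WT libraries. The *Tdg* null libraries, whose peaks chose the regions, were above it at 1 kb, but several were below it farther out. In Tdg null hindbrain of litter A, 11% of positions were covered at 1 kb, 2.23% at -2000 bp and 6.19% at 4 to 5 kb.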
